A study of Homo sapiens with 48 samples.

Results

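This section describes 6 genes for transcriptional regulators linked to epidermal differentiation, CEBPA, CEBPD, GRHL1, HOPX, IRX3 and BHLHE40, in a pooled CRISPR knockout screen. They were chosen by name out of the 327 genes measured, on the strength of earlier results of the same tables: a high CEBPD in SCC13 tumors, rises of GRHL1 and BHLHE40 in CAL27 tumors, and a rise of IRX3 in tumors of all 3 lines were already known. The screen used 3 human squamous carcinoma lines that carry the nuclease Cas9: A-431 (here A431), CAL27 and SCC-13 (here SCC13). Per the series text, guide RNAs against 334 genes and 136 non-targeting guides were delivered to each line. Cells were either kept in culture for 3 weeks (A431 n = 2, CAL27 n = 2) or grown as flank tumors in immunodeficient mice for about 2 months (A431 n = 8, CAL27 n = 10, SCC13 n = 16). The hosts were SHO mice for A431 and CAL27 and NOD.Cg-Prkdcscid Il2rgtm1Wjl/SzJ mice for SCC13, so that line and host cannot be told apart where SCC13 is set against the other lines. A culture of SCC13 is not analysed here. Each of the 5 groups was set against its own 2 samples of initial, frozen cells, all of which carried Cas9 and the guides too. The labels do not say whether tumors came from separate mice or cultures from separate infections, so p-values cover just the spread among the samples at hand, which may be technical. Any error that the values of a group share through its initial samples lies outside every SE, interval and p-value.

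A screen of this kind counts guides. When a knockout slows growth or survival its guides become rarer, and when it helps the cells they become more frequent. Terminal differentiation takes keratinocytes out of the cell cycle, and transcription factors that drive it can therefore act as brakes on the growth of squamous cells. CEBPA and CEBPD belong to the C/EBP family of leucine zipper factors, which promote cell cycle exit and late keratinocyte genes. GRHL1 is a grainyhead-like factor known for controlling desmosomal cadherin genes in the epidermis. HOPX is a small homeodomain protein that does not bind DNA itself and is made in suprabasal keratinocytes and hair follicle stem cells. IRX3 is an Iroquois homeobox factor with roles in tissue patterning. BHLHE40 is a basic helix-loop-helix repressor of the circadian and hypoxia responses and is the member least specific to epidermis. Whether the 6 genes are expressed in these lines was not analysed here.

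In the GENCODE 44 annotation of GRCh37, used here for orientation only, CEBPA (chr19:33790840-33793440, minus strand) and CEBPD (chr8:48649475-48650726, minus strand) are single-exon genes. GRHL1 (chr2:10091822-10142405, plus strand) has 16 exons, HOPX (chr4:57514155-57548043, minus strand) has 4, IRX3 (chr16:54317216-54320699, minus strand) has 4 and BHLHE40 (chr3:5021122-5027008, plus strand) has 5 in the representative (MANE Select) transcript. The exons that the guides cut are unknown here (not given in the sources used here).

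Values are log fold changes of a gene's guides between the initial and the later cells, in log units of unstated base. All tables put the non-targeting guides at 0 in all 38 value columns. For the results below the median over the 327 genes was subtracted from each column, so that a positive value means more frequent than the knockout of the median gene. A value column stands for 1 tumor or culture. Which sign means loss was read from DUT, a nucleotide pool enzyme needed for replication, which was the lowest of the DNA replication genes that passed the test in 4 of the 5 groups. As deposited, column medians lay below 0 in every column except that of 1 SCC13 tumor (value column 3, 0.53), and between -2.67 and -0.67 in the other 15 SCC13 tumors. In the SCC13 columns, 8 to 145 genes per tumor were flagged for a possible shared limit. The flag was given to 4 or more genes with the same difference between a pair of columns. It does not ask whether a value is low. No value of the 6 genes in the 34 tumors was flagged. In CAL27 culture both IRX3 values were, at percentiles 52 and 51.5, the middle of the column. The files hold no counts, so the depth behind each value is unknown.

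In tumors the 6 genes stood highest in SCC13, lower in CAL27 and lowest in A431 by the median of their means (2.15, 1.11 and 0.27). In SCC13 tumors the mean of each lay between 1.28 and 2.86 log units above the median gene, from 0.96 to 1.69 in CAL27, while A431 tumors gave means between -0.30 and 0.83. At an adjusted p under 0.05 (limma against 0, Benjamini-Hochberg over all 327 genes), 6 of 6 were called higher in SCC13 tumors, where 23.5% of all genes were. In CAL27 tumors 6 of 6 were called higher against 18.7% of all genes, and in A431 tumors 1 of 6, IRX3, against 7.95%. Tumor values were in view when the genes were chosen, so these counts describe the choice and nothing is read from them. In culture 0 of 6 were called in either line, against 13.5% of all genes in A431 and 23.5% in CAL27, counting both directions.

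**Figure D1:**
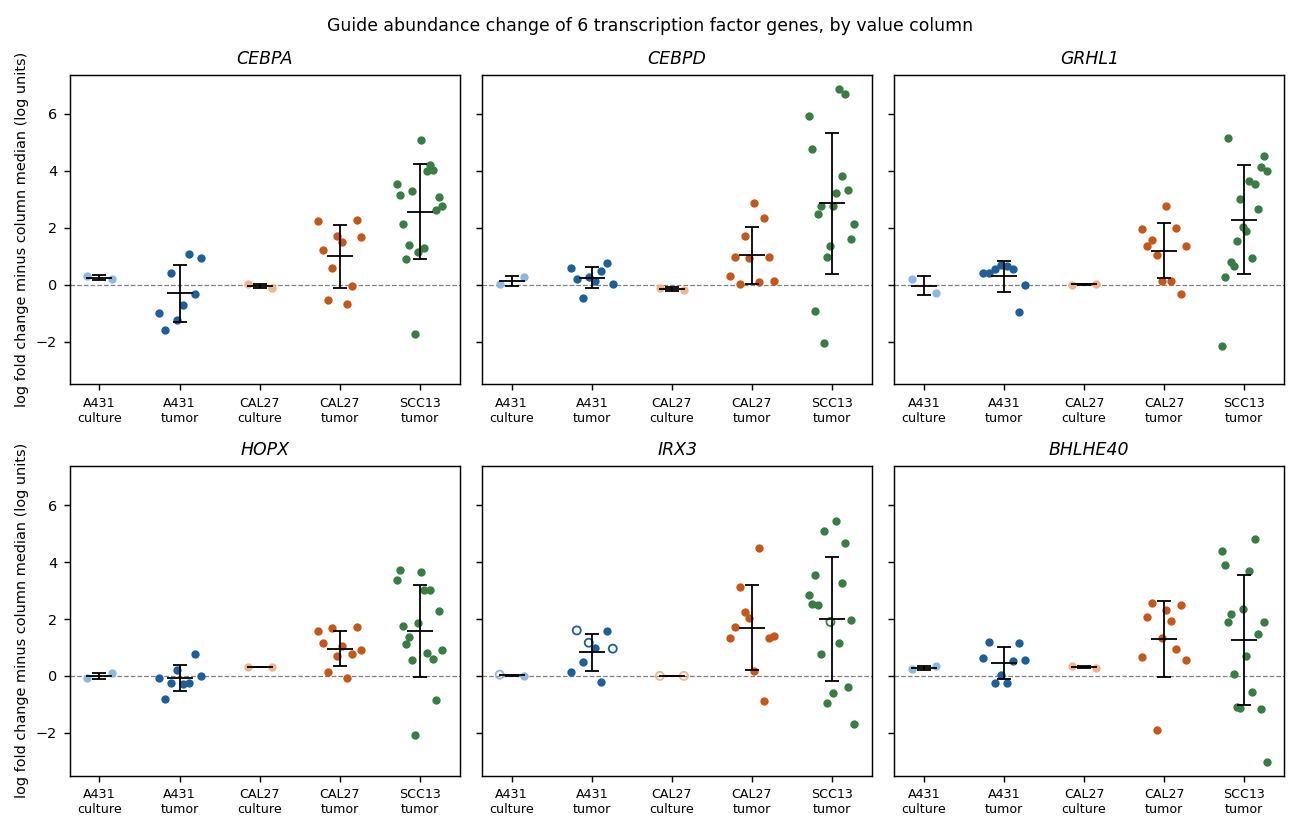
Log fold change of each gene's guides minus the column median (y axis, log units) for every value column (points), by line and setting (x axis), with mean ± SD in black. Open circles mark IRX3 values that are exactly equal to those of other genes in the same column. The culture points lie between -0.28 and 0.34, the A431 tumors between -1.58 and 1.60, and most CAL27 and SCC13 tumors above 0.

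CEBPA, the family's best known driver of cell cycle exit, had the widest gap between lines. In A431 tumors its values ran from -1.58 over a median of -0.51 to 1.08 (mean -0.30 ± 1.00, SD, n = 8), with 5 of 8 tumors below 0. In CAL27 tumors they ran from -0.68 over 1.35 to 2.28 (0.99 ± 1.10, n = 10), with 7 of 10 above 0. The call there was lost without value column 1, 2, 5, 6, 9 or 10 in turn (mean 0.85 to 1.18 over the 10 such fits). It was also lost under the exact sign-flip test (adjusted p = 0.0653, range 0.0155 to 0.671 over the alternatives without leaving out a sample). These p-values use tumors in view at the choice and are no independent evidence. In SCC13 tumors they ran from -1.72 over 2.93 to 5.08 (2.56 ± 1.67, n = 16), with 15 of 16 above 0. The ranges of the 3 lines overlap, but CEBPA ranked 14th of 327 genes by mean in SCC13 and 237th in A431. The A431 tumors were also unlike each other: the SD of CEBPA there ranked 40th of 327, and its percentile among the genes of a tumor went from 8.72 to 92.8. In culture CEBPA stood at 0.31 and 0.18 in A431 and at 0.01 and -0.11 in CAL27. Ordered by mean, SCC13 tumors came first, then CAL27 tumors, A431 culture (0.24), CAL27 culture (-0.05) and A431 tumors. Of the steps tested, only that from SCC13 to CAL27 tumors passed (below). The steps from CAL27 tumors to A431 culture and from CAL27 culture to A431 tumors were not tested.

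CEBPD, a relative of CEBPA that is induced by stress and cytokines, was the highest of the 6 in SCC13. In A431 tumors its values ran from -0.48 over 0.23 to 0.77 (0.25 ± 0.38, n = 8), and 7 of 8 were above 0. In CAL27 tumors they ran from 0.01 over 0.95 to 2.87 (1.03 ± 0.99, n = 10), all above 0, and the call was lost without value column 8 (mean 0.83 to 1.15 over the 10 such fits). In SCC13 tumors they ran from -2.06 over 2.77 to 6.89 (2.86 ± 2.48, n = 16), and 14 of 16 were above 0. CEBPD ranked 8th of 327 genes by mean in SCC13, and also 14th by SD: the 4 highest tumors (value columns 1, 2, 11 and 13, at 5.93, 4.76, 6.89 and 6.71) stood apart from 2 below 0 (value columns 3 and 6, at -0.93 and -2.06). In A431 tumors its SD was among the smallest, at rank 298. The cultures held 0.01 and 0.26 in A431 and -0.11 and -0.19 in CAL27. The order by mean was SCC13 tumors, CAL27 tumors, A431 tumors, A431 culture (0.14) and CAL27 culture (-0.15), and again only the first step passed a test.

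GRHL1 values in A431 tumors ran from -0.96 over 0.49 to 0.70 (0.29 ± 0.55, n = 8). The lowest, value column 7, stood apart, with the next lowest (value column 8) just below 0 and 6 tumors above 0. In CAL27 tumors GRHL1 ran from -0.34 over 1.36 to 2.75 (1.20 ± 0.97, n = 10), with 9 of 10 above 0. In SCC13 tumors it ran from -2.17 over 2.35 to 5.16 (2.29 ± 1.92, n = 16), with 15 of 16 above 0, and ranked 20th of 327 by mean. The cultures were split in A431 (0.20 and -0.28) and at the column median in CAL27 (0.00 and 0.03). In the order SCC13 tumors, CAL27 tumors, A431 tumors, CAL27 culture and A431 culture, no step between neighbours passed a test, and where none was made the ranges overlapped.

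HOPX had the tightest values of the 6 in CAL27 tumors. There they ran from -0.07 over 0.98 to 1.70 (0.96 ± 0.61, n = 10), an SD that ranked 309th of 327 genes. In A431 tumors they ran from -0.80 over -0.17 to 0.77 (-0.09 ± 0.45, n = 8), with 5 of 8 below 0. In SCC13 tumors they ran from -2.09 over 1.57 to 3.72 (1.57 ± 1.62, n = 16), with 14 of 16 above 0. HOPX was also above the median gene in CAL27 culture, at 0.31 and 0.32, where it ranked 28th of 327, while in A431 culture it stood at -0.06 and 0.09. Its order was SCC13 tumors, CAL27 tumors, CAL27 culture, A431 culture and A431 tumors, and no step passed a test. With 2 cultures per line, those of the 2 lines did not overlap for HOPX, and neither did they for CEBPA, CEBPD and IRX3. For IRX3 all culture values lay between 0.0014 and 0.043, and 1 of 2 in A431 and 2 of 2 in CAL27 were shared with other genes. How many of all genes were apart between the cultures was not counted, so nothing is read from this.

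IRX3 was the one gene of the 6 called higher in tumors of all 3 lines, which was known when it was chosen. In A431 tumors its values ran from -0.22 over 0.96 to 1.60 (0.83 ± 0.66, n = 8), with 7 of 8 above 0 and a mean at rank 11 of 327. In CAL27 tumors they ran from -0.90 over 1.56 to 4.51 (1.69 ± 1.48, n = 10), with 9 of 10 above 0 and rank 17. In SCC13 tumors they ran from -1.68 over 2.22 to 5.45 (2.00 ± 2.17, n = 16), with 12 of 16 above 0 and rank 28. Both A431 cultures (0.04 and 0.01) and both CAL27 cultures (0.00 and 0.00) lay at the column median. The order by mean was SCC13, CAL27 and A431 tumors, then A431 and CAL27 culture, and no step passed the main limma test. The step from A431 tumors to A431 culture passed only when each group was given its own spread (adjusted p = 0.0438, below).

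Some IRX3 values are not its own alone. In 7 of the 38 value columns IRX3 held exactly the value of other genes, with a tolerance of 1e-09 on the deposited number, and no other of the 6 genes did so in any column. In culture the shared value lay near the middle of the column and was held by groups of genes: 8 others in value column 1 of A431 (CALD1, CYR61, DMKN, KRT1, KRT6A, OCIAD2, PLP2 and SERPINH1), 9 others in value column 1 of CAL27 (ADM, CALD1, CD151, DST, FAM213A, IRF3, SERPINB1, SERPINH1 and TPM2) and 6 others in its value column 2 (CALD1, CD151, DMKN, SERPINB1, SERPINH1 and TPM2). In tumors it was held with 1 other gene: INHBA in value column 2, DST in value column 4 and TPM2 in value column 8 of A431, and TPM2 in value column 8 of SCC13. These tumor values were high, at 1.60, 1.17 and 0.96 in A431 and 1.90 in SCC13. Why values coincide was not tested, and the step from guides to a gene value was not stated in the sources at hand. With all shared values left out, IRX3 was no longer called in A431 tumors, where its mean was 0.58. It also lost the call there without value column 2, 4 or 7 in turn (mean 0.72 to 0.98 over the 8 fits that each leave out 1 tumor). In SCC13 tumors the mean without the shared value was 2.01.

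BHLHE40 had tumors far below 0 in both CAL27 and SCC13. In A431 tumors its values ran from -0.25 over 0.54 to 1.21 (0.45 ± 0.57, n = 8), with 6 of 8 above 0. In CAL27 tumors 9 of 10 lay between 0.56 and 2.56 and 1, value column 4, at -1.89 (median 1.64, mean 1.30 ± 1.34). In SCC13 tumors they ran from -3.01 over 1.70 to 4.81 (1.28 ± 2.29, n = 16), with 5 of 16 below 0. BHLHE40 lost its call in SCC13 tumors under the exact sign-flip test (adjusted p = 0.0879, range 0.0215 to 0.572 over the alternatives without leaving out a sample) and without value column 1, 2, 10 or 12 in turn (mean 1.04 to 1.56 over all 16 such fits). Here too the p-values use tumors in view at the choice and are no independent evidence. It was above the median gene in all 4 cultures, at 0.24 and 0.33 in A431 and 0.34 and 0.29 in CAL27. The order was CAL27 tumors, SCC13 tumors, A431 tumors, CAL27 culture and A431 culture, and neighbours either overlapped or did not pass a test.

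**Figure D2:**
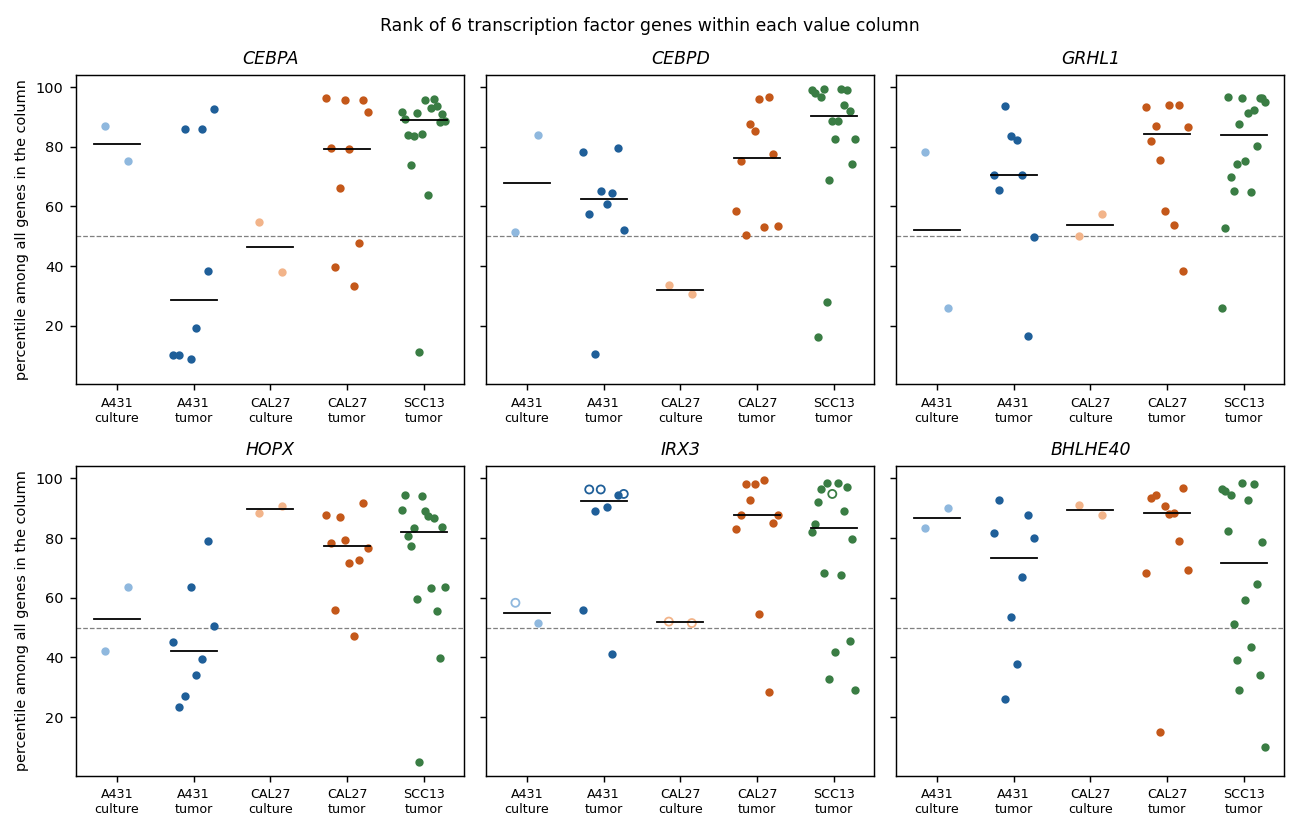
Percentile of each gene among the 327 genes of its value column (y axis) by line and setting (x axis), which does not depend on the scale of a column. Bars are medians and open circles IRX3 values shared with other genes: the median of CEBPA in tumors is 28.8 for A431, 79.4 for CAL27 and 89.1 for SCC13.

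Ranks within a tumor, which are free of the wider scale of the SCC13 columns, gave a flatter picture for some of the 6. CEBPA and CEBPD kept an order of A431, CAL27 and SCC13 in their median percentiles (28.8, 79.4 and 89.1 for CEBPA, 62.6, 76.3 and 90.4 for CEBPD). GRHL1 was alike in CAL27 (84.4) and SCC13 (83.9) and lower in A431 (70.5). IRX3 was highest in A431 (92.5), then CAL27 (87.8) and SCC13 (83.4), and BHLHE40 was highest in CAL27 (88.4). HOPX had 42.2 in A431 tumors against 77.5 in CAL27 and 81.9 in SCC13.

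The calls in tumors depend on the reference point. Against the non-targeting guides, as deposited, 0 of 6 were called higher in A431 tumors (2.14% of all genes were), 0 of 6 in CAL27 tumors (5.50%) and 1 of 6, CEBPD, in SCC13 tumors (3.98%). The mean of CEBPD in SCC13 tumors was then 1.24 ± 2.12, and those of CEBPA and GRHL1 were 0.94 ± 1.68 and 0.67 ± 2.27. IRX3 had 0.39 ± 2.40, HOPX -0.05 ± 1.83 and BHLHE40 -0.34 ± 2.52. In CAL27 tumors the means as deposited were 0.14 to 0.88, with IRX3 the highest, and in A431 tumors -0.58 to 0.56, with IRX3 again the highest. As deposited, the values of single tumors were above 0 in 24 of 34 for IRX3, 22 for CEBPA, 21 each for CEBPD and GRHL1, 20 for BHLHE40 and 16 for HOPX.

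**Figure D3:**
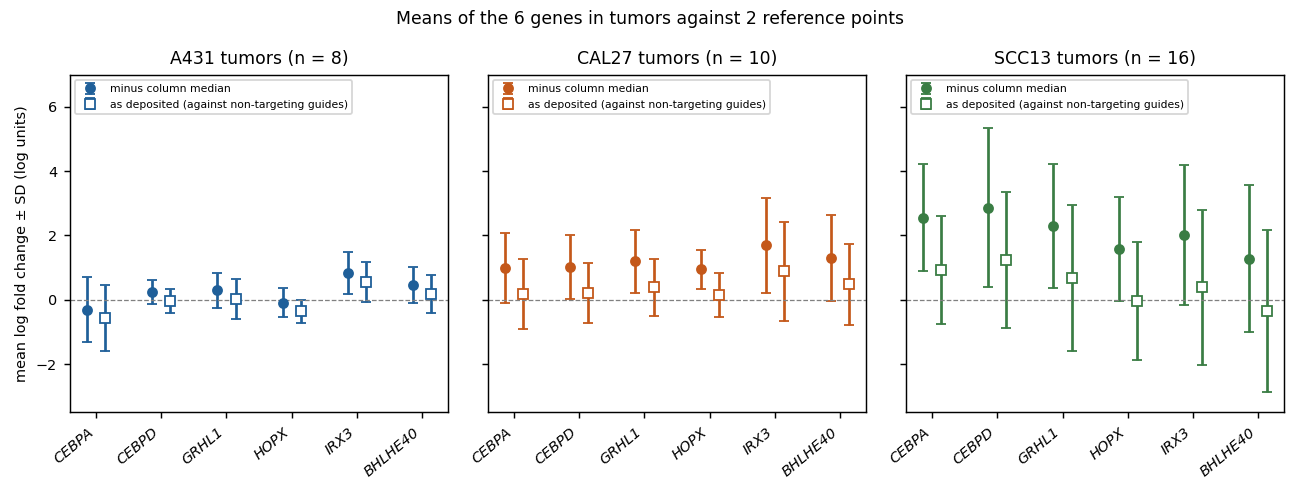
Mean log fold change ± SD (y axis, log units) of the 6 genes (x axis) in A431, CAL27 and SCC13 tumors, with the column median subtracted (filled circles) and as deposited against non-targeting guides (open squares). The open squares lie lower in all 3 lines, and in SCC13 those of HOPX and BHLHE40 are just below 0.

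The known results behind the choice named tumor levels of CEBPD, GRHL1, BHLHE40 and IRX3, and the tumor values of all 6 genes were in view. The culture values belong to the same data, and part of them, the shared IRX3 values, was known too. In culture, CEBPA (0.24, SE 0.11, adjusted p = 0.238) and BHLHE40 (0.29, SE 0.10, adjusted p = 0.173) had the largest A431 means, and both cultures of each were above 0. In CAL27 culture HOPX (0.31, SE 0.06) and BHLHE40 (0.32, SE 0.06) just missed the threshold, each with an adjusted p = 0.0504 (range over the alternatives 0.0299 to 0.103 for HOPX and 0.0279 to 0.111 for BHLHE40). Both passed when values shared between genes were left out, at the low end of these ranges. Of all genes, 31 were then called higher and 80 lower. CEBPD was the only one of the 6 below 0 in both CAL27 cultures (-0.15, SE 0.06, adjusted p = 0.199). As deposited, CEBPA, CEBPD, GRHL1 and IRX3 were called lower in CAL27 culture, 4 of 6, as were 89.6% of all genes, and 0 of 6 in A431 culture against 41.6%. CAL27 culture set against A431 culture gave 0 of 6 calls against 3.06% of all genes. The largest differences there were those of CEBPA (-0.29, 95% interval -0.62 to 0.028), CEBPD (-0.29, -0.64 to 0.066) and HOPX (0.30, -0.018 to 0.62).

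Next, tumors were set against cultures of the same line. The tumor values here are those in view when the genes were chosen, so the differences and their tests describe the choice in part and are no independent evidence. With 1 spread for tumors and cultures, 0 of 6 were called in A431 and 0 of 6 in CAL27, as were 0% of all genes in both lines (20 and 30 of 327 genes had an unadjusted p under 0.05, none of them among the 6). The differences in CAL27 were all positive. IRX3 had 1.69 (95% interval -0.30 to 3.69), CEBPD 1.18 (-0.41 to 2.78), GRHL1 1.18 (-0.39 to 2.76), CEBPA 1.04 (-0.63 to 2.71), BHLHE40 0.99 (-0.89 to 2.86) and HOPX 0.64 (-0.70 to 1.99). All 10 CAL27 tumors lay above both cultures for CEBPD, and for the other 5 the ranges overlapped. How many of all genes were apart in this way was not counted, so nothing is read from it. In A431 the difference was 0.80 for IRX3 (-0.22 to 1.83) and -0.55 for CEBPA (-1.90 to 0.81), and the other 4 lay between -0.10 and 0.33. The median of the 6 differences was 1.11 in CAL27 and 0.14 in A431, beside 0.03 and 0.07 over all genes.

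Tumor values spread far more than culture values: the SD of the median gene was 0.62 in A431 tumors against 0.13 in culture, and 1.09 against 0.09 in CAL27. When each group was given its own spread, the tumor to culture difference passed for CEBPA (adjusted p = 0.03), CEBPD (0.0113), GRHL1 (0.0109) and IRX3 (0.00414) in CAL27, 4 of 6 against 17.7% of all genes called higher. In A431 it passed for IRX3 (0.0438), 1 of 6 against 6.73%. Over the alternatives tried without leaving out a sample, the largest adjusted p of these 5 differences was 0.813 to 0.985. Only 2 cultures per line stand behind that narrower spread, and both IRX3 values in CAL27 culture are shared ones.

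The same holds between lines, where the tests also use the tumors in view at the choice. SCC13 against A431 tumors gave 4 of 6 genes higher, against 10.4% of all genes. The difference was 2.86 for CEBPA (SE 0.62, adjusted p = 0.000714), 2.61 for CEBPD (SE 0.70, adjusted p = 0.00583), 1.99 for GRHL1 (SE 0.63, adjusted p = 0.0182) and 1.66 for HOPX (SE 0.58, adjusted p = 0.0332). In SCC13, 15 of 16 tumors lay above the A431 mean for CEBPA and 14 of 16 for each of the other 3. IRX3 (1.17, 95% interval -0.19 to 2.54) and BHLHE40 (0.82, -0.56 to 2.20) did not pass. As deposited 0 of 6 passed, with CEBPA closest at 1.51 and an adjusted p = 0.0519. With each column divided by its SD over genes, CEBPA (adjusted p = 0.00384) and CEBPD (0.0322) passed and GRHL1 (0.168) and HOPX (0.0627) did not, and by exact permutation only CEBPA did (adjusted p = 0.012). Over the alternatives without leaving out a sample, the adjusted p was 2.76e-05 to 0.0519 for CEBPA, 5.14e-05 to 0.122 for CEBPD, 0.00138 to 0.459 for GRHL1 and 0.00584 to 0.70 for HOPX. HOPX also lost its call without 1 of 7 tumors in turn: A431 value column 1, 2, 3, 4, 5 or 6, or SCC13 value column 2 (difference 1.51 to 1.90 over all 24 such fits).

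SCC13 against CAL27 tumors gave 2 of 6 genes higher, against 9.79% of all genes. CEBPA differed by 1.57 (SE 0.57, adjusted p = 0.0454), with 14 of 16 SCC13 tumors above the CAL27 mean. CEBPD differed by 1.83 (SE 0.65, adjusted p = 0.0401), with 13 of 16 above it. Both calls were close to the threshold. CEBPA lost it in 17 of the 26 fits that leave out 1 tumor, those without CAL27 value columns 2 to 8 or SCC13 value columns 1, 2, 6, 9 or 11 to 16 (difference 1.38 to 1.85). CEBPD lost it in 13, those without CAL27 value columns 1, 2, 3, 5, 7, 9 or 10 or SCC13 value columns 1, 2, 10, 11, 13 or 14 (difference 1.56 to 2.16). Neither passed as deposited, by permutation or with columns divided by their SD. The range over all alternatives was 0.00921 to 0.401 for CEBPA and 0.00963 to 0.258 for CEBPD. GRHL1 (1.09, 95% interval -0.08 to 2.26), HOPX (0.62, -0.47 to 1.70), IRX3 (0.31, -0.96 to 1.58) and BHLHE40 (-0.02, -1.31 to 1.26) did not pass.

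CAL27 against A431 tumors gave 0 of 6 calls against 3.36% of all genes. As in the other comparisons between lines, 1 spread was shared by all 3 tumor groups, so SCC13 tumors enter its intervals and p-values. The SD of the median gene was 1.79 in SCC13, 1.09 in CAL27 and 0.62 in A431 tumors. Of all genes, 1 was called higher and 10 lower, and by exact permutation of the 2 groups alone 27 and 32. CEBPA was 1.29 higher in CAL27 (95% interval -0.06 to 2.64) and HOPX 1.04 higher (-0.23 to 2.31), with 8 and 10 of 10 CAL27 tumors above the A431 mean. The other 4 were 0.79 to 0.90 higher, all with intervals across 0. HOPX passed by exact permutation (adjusted p = 0.0183) and with each group's own spread (0.0289), and CEBPA with the latter (0.0381). With own spreads 29 of all genes were called higher and 44 lower. Over the alternatives without leaving out a sample the adjusted p went up to 0.784 for HOPX and 0.669 for CEBPA.

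**Figure D4:**
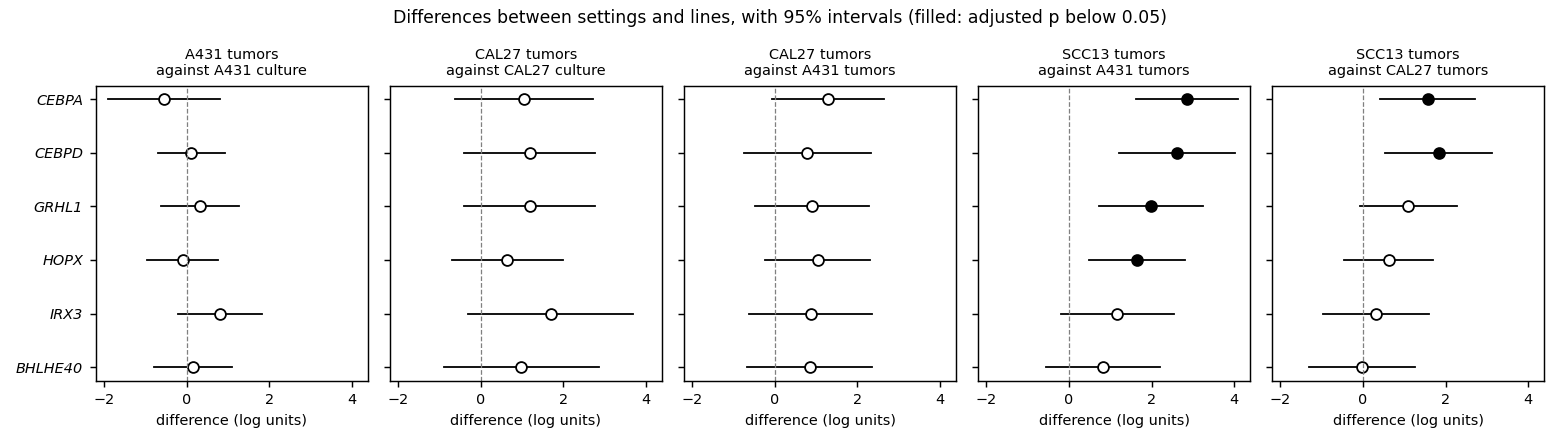
Difference in mean log fold change (x axis, log units, column median subtracted) with its 95% interval for each gene (y axis) in 5 comparisons between settings or lines. Filled points passed an adjusted p of 0.05 over 327 genes, and lie only in the SCC13 comparisons: CEBPA, CEBPD, GRHL1 and HOPX against A431 and CEBPA and CEBPD against CAL27.

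The 6 genes did not move as a block from tumor to tumor. In SCC13, all 6 were above the median gene in 8 of 16 tumors, and in 1, value column 7, only CEBPD (0.98) and GRHL1 (3.02) were, with CEBPA at -1.72, HOPX at -2.09, IRX3 at -0.94 and BHLHE40 at -1.11. That tumor also had the most genes, 145, flagged for a possible shared limit. In CAL27 all 6 were above it in 5 of 10 tumors, and in A431 in 0 of 8. Across the 15 pairs of the 6 genes, Pearson's r over tumors had a median of 0.17 in SCC13, -0.05 in CAL27 and -0.14 in A431, with values from -0.72 to 0.74, beside a median near 0 over all gene pairs. Points of 1 pair share the tumor, its depth and its centring, so these are descriptions.

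HOPX and BHLHE40 went together most closely in SCC13 (r = 0.73, Spearman's rho = 0.78, n = 16, and r = 0.70 without the 2 tumors farthest from the median of HOPX). Of all gene pairs, 1.16% had an r as high there. The pair was picked as the highest of 15, so this share is no test of it. The same pair had r = -0.43 in CAL27 tumors and 0.10 in A431 tumors. CEBPA and HOPX had the highest r in CAL27 (0.74, rho 0.64, n = 10, and 0.77 with columns divided by their SD). It fell to 0.33 without the 2 tumors farthest from the CEBPA median. Leaving out the extremes also narrows the range, so this cannot tell whether r rests on them. CEBPD and IRX3 had the lowest r in CAL27 (-0.72, rho -0.70), also reduced, to -0.35, without 2 tumors.

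By likeness over all 38 columns, each divided by its SD over genes, GRHL1 came closest to IGFBP6 (r = 0.69), ADM (0.63) and PLK1 (0.62). CEBPA was most like RFX5 (0.54), HOPX (0.54) and VIM (0.52), and HOPX most like CEBPA (0.54), CLDN1 (0.47) and BHLHE40 (0.46). CEBPD was most like KRT6A (0.50), CDKN2B (0.50) and TIMP3 (0.49). BHLHE40 was most like ALDH3A1 (0.51), APP (0.48) and HOPX (0.46). IRX3 was most like FEN1 (0.55), DST (0.53) and TMSB10 (0.47), and shared its exact value with DST in 2 columns. The columns mix lines and settings, whose part in these r was not tested.

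Of 14 other epidermal transcription factors measured, 2 were called higher and 5 lower in SCC13 tumors, where 77 and 78 of all 327 genes were, from JUND (1.57 ± 2.30, n = 16), an AP-1 subunit, to JUNB (-2.92 ± 1.36), another. In CAL27 tumors 1 was higher, SOX4 (1.24 ± 0.81, n = 10), and 6 lower, beside 61 and 72 of all genes, the lowest being the AP-1 subunit FOSL1 (-2.74 ± 1.65). In A431 tumors the ETS factor ELF2 was higher (0.74 ± 0.57, n = 8) and TP63, the master factor of basal keratinocytes, lower (-2.79 ± 2.02), beside 26 and 39 of all genes. The other 7, 7 and 12 of the 14 were not called in SCC13, CAL27 and A431 tumors. The median of their means was -0.36 in SCC13, -0.13 in CAL27 and -0.02 in A431 tumors, and over all genes it lay near 0 by the centring. As deposited none of the 14 was higher in tumors of any line, and JUND and SOX4 fell below 0 in SCC13.

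Of 15 keratinocyte differentiation genes measured, the structural and late products of the program, 6 were called higher and 1 lower in SCC13 tumors, 8 and 1 in CAL27 tumors and 2 and 0 in A431 tumors, beside the same shares of all genes (23.5%, 18.7% and 7.95% higher). The highest were the calmodulin-like CALML3 in SCC13 (2.92 ± 1.35, n = 16) and A431 (0.96 ± 0.32, n = 8) and the secreted DMKN in CAL27 (2.20 ± 1.13, n = 10). The lowest was the fatty acid carrier FABP5 in SCC13 (-2.42 ± 1.66) and CAL27 (-1.55 ± 1.72). Their medians were 0.93, 1.04 and 0.11. As deposited 1 of 15 was higher and 5 lower in SCC13 tumors, with KRT10 and LGALS7 turned below 0, 4 and 3 in CAL27, and 1 and 2 in A431.

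In culture, 7 of all genes were called higher and 37 lower in A431, and 16 and 61 in CAL27. In A431, 0 of these 15 were called. In CAL27 culture 3 were higher, led by CSTA (0.41 ± 0.02, n = 2), and FABP5 was lower (-0.89 ± 0.32), but all 3 turned below 0 as deposited. Of the 14 other factors, 0 were higher and 4 lower in A431 culture (TP63 lowest, -1.30 ± 0.12, n = 2), and 2 were higher and 4 lower in CAL27 culture (ELF2 0.55 ± 0.21 and MYC -2.02 ± 0.29), of which ID2 turned below 0 as deposited. Of 10 DNA replication genes, 4 to 8 were lower in each of the 5 groups, with DUT lowest at -5.36 ± 1.79 in CAL27 tumors, and TK1 (1.11 ± 0.85) was the only one called higher, in CAL27 tumors, and not as deposited.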

How the data were processed

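Guides were amplified from genomic DNA in 2 rounds of PCR and sequenced, per the labels' protocols. Bowtie2 was used, per the submitters' processing notes (version not given in the sources used here). For each line and setting the authors deposited a table of log fold changes per gene, not counts. Log base, pseudocount, summary over guides and build were not stated there either. Value columns carry no sample names, their number equals the later samples of the group, and 0 columns were left unused.

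Each column was centred on its median over 327 genes, and limma 3.58.1 in R 4.3.3 was fitted to all genes: each table against 0, tumors and culture of a line together, and the 3 tumor tables together. Fits were tested on simulated data. The 6 genes were named by a list, and list genes as the lowest and highest passing gene per group. Members and lists were chosen with earlier results of these data known. Alternatives were deposited values, scaled columns, exact sign-flip or permutation tests (100000 resamples where both groups have 10 or more) and separate spreads. Others left out shared values, tumor values flagged for a possible shared limit, or each column. Figures were drawn with matplotlib 3.10.9.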

Additional observations from a re-analysis of the deposited data

Results flagged for a closer look

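Of 12 sets of tumor values examined (6 genes in A431 and CAL27 tumors), 2 held 1 value far from the others. GRHL1 in A431 value column 7 was -0.96, with a gap to its neighbour of 0.575 of the range. BHLHE40 in CAL27 value column 4 was -1.89, with a gap of 0.55 of the range. Chance gives such a gap in about 1 in 20 sets. SCC13, with 16 tumors, was not examined this way.

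The difference between lines passed the limma test for CEBPA (2.86), CEBPD (2.61), GRHL1 (1.99) and HOPX (1.66) between SCC13 and A431 tumors. It passed for CEBPA (1.57) and CEBPD (1.83) between SCC13 and CAL27 tumors. Lines and host mice cannot be told apart in these 6 differences. The tumor values were in view when the genes were chosen, so these tests are no independent evidence. None of these differences passed as deposited, and by permutation only that of CEBPA between SCC13 and A431 tumors did.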

How the results depend on the processing

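No paired analysis was possible because the value columns carry no replicate numbers. As deposited, calls went from 1 to 0 of the 6 genes in A431 tumors, from 6 to 0 in CAL27 tumors, from 6 to 1 in SCC13 tumors, from 0 to 4 in CAL27 culture, from 4 to 0 for SCC13 against A431 and from 2 to 0 for SCC13 against CAL27. Of all genes, 5 were higher and 121 lower as deposited for SCC13 against A431, and 12 and 68 for SCC13 against CAL27. With columns divided by their SD, SCC13 against A431 gave 2 (all genes: 25 higher, 19 lower) and against CAL27 0 (29 and 22). By permutation these gave 1 (20 and 23) and 0 (23 and 18), and CAL27 against A431 tumors gave 1 (27 and 32). Exact sign flips, and leaving out shared values, gave 0 in A431 tumors (signs of 8 tumors allow no p under 0.0078). Of all genes, sign flips called 0 there, and leaving out shared values 24 higher and 39 lower. Sign flips also gave 5 in CAL27 tumors (CEBPA lost) and 5 in SCC13 tumors (BHLHE40 lost). Of all genes they called 59 higher and 60 lower in CAL27, and 71 and 76 in SCC13. Leaving out shared values gave 2 in CAL27 culture, where 31 of all genes were then called higher and 80 lower. Own spreads gave 1 for A431 tumors against culture (all genes: 22 higher, 18 lower) and 4 for CAL27 (58 and 49). They gave 2 for CAL27 against A431 tumors (29 and 44). Leaving out 1 column gave 0 to 1 calls in A431 tumors, 5 to 6 in CAL27 and in SCC13 tumors, 3 to 4 for SCC13 against A431 and 0 to 2 for SCC13 against CAL27.

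Signs turned as deposited for CEBPD in A431 tumors (-0.028), HOPX (-0.047) and BHLHE40 (-0.34) in SCC13 tumors, CEBPA (-0.12), CEBPD (-0.23), HOPX (-0.35), IRX3 (-0.34) and BHLHE40 (-0.077) in A431 culture, and GRHL1 (-0.47), HOPX (-0.17), IRX3 (-0.48) and BHLHE40 (-0.17) in CAL27 culture. They also turned for GRHL1 (-0.064) and BHLHE40 (-0.089) between cultures, IRX3 (-0.17) and BHLHE40 (-0.52) for SCC13 against A431, and HOPX (-0.19) and IRX3 (-0.49) for SCC13 against CAL27. With scaled columns, CEBPD (-0.11) and BHLHE40 (-0.18) turned for A431 tumors against culture, BHLHE40 (-0.029) between cultures, and IRX3 for SCC13 against A431 (-0.10) and CAL27 (-0.18). Leaving out 1 column turned values near 0: HOPX in A431 tumors (-0.21 to 0.017), CEBPD (-0.017 to 0.24) and HOPX (-0.22 to 0.0040) for A431 tumors against culture, GRHL1 (-0.19 to 0.29) and BHLHE40 (-0.019 to 0.075) between cultures, and BHLHE40 for SCC13 against CAL27 (-0.38 to 0.26). Apart from centring, the cause was not tested.

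In all, 945 of 1077 values under alternatives kept direction and call, 80 lost only the call, 12 only gained one and 40 changed sign. The total includes results that were never called and fits that leave out 1 column, so it does not measure how firm the calls are. Sign flips for 2 cultures, and permutations of 2 against 2, cannot pass (smallest p 0.5 and 0.333) and were not run.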
